A study of Mus musculus with 16 samples.

Results

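Glycolysis splits glucose into pyruvate and gives ATP without oxygen, and lactate dehydrogenase with the lactate carriers disposes of the pyruvate when the mitochondria do not take it. When oxygen is scarce, the prolyl hydroxylases can no longer mark the HIF-1α subunit for destruction, and HIF-1α with its partner ARNT switches on glucose carriers, glycolytic enzymes and genes of angiogenesis, mitophagy and collagen modification. The bone marrow is a tissue of low oxygen, and leukemia cells in it are known for a high use of glucose. The genes examined were 36 glycolytic and HIF target genes fixed by name: 4 carriers of glucose and lactate, 8 genes of upper glycolysis, 8 of lower glycolysis and the fate of pyruvate, 4 of HIF and oxygen sensing, and 12 other HIF targets. By symbol, 33 of the 36 had a row among the 15080 genes of the tumor table and 32 among the 13344 genes of the stroma table. Egln3, P4ha2 and Adm were not listed in the tables used here, and Ankrd37 was listed for tumor only. Every listed member had a mean normalized count over 10 in its table, the minimum for testing.

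The host was either a wild-type C57BL/6J mouse (WT) or a C57BL/6J mouse that lacks Il6, labelled IL6KO (IL-6 KO below), aged 6 to 8 weeks per the study's methods. Both kinds of host received 500000 BCR-ABL+, Arf-/- B-ALL cells through the tail vein. These leukemia cells were marked with mCherry by a retrovirus and came from male cells. The labels give the leukemia of both hosts the same genotype, so the groups differ in the host. Marrow was taken without drug treatment 8 days after injection, red cells were lysed, and mCherry+ cells (tumor) and mCherry- cells (stroma, which here is every other marrow cell that passed the sort) were sequenced as 4 libraries per genotype and compartment. The labels number the 4 libraries of a group and do not say that each came from its own mouse, so p-values measure the spread between these libraries, which may be technical.

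Il6 itself had no row in either table, so the host genotype rests on the labels. All 9 B-lineage markers used (Cd79a, Ebf1 and others) were listed in both tables, and their summed normalized count was 123745 to 136872 in tumor and 2872 to 8424 in stroma. Most of the stroma sum was Cd24a, at 2398 to 7416, while Cd79a was at 20.3 to 104 there. Erythroid markers summed to 592 to 3457 in tumor and to 51811 to 218579 in stroma, so the stroma libraries held much red cell RNA in spite of the lysis. The normalized counts of a library summed to 3.88e+07 to 4.46e+07 in WT and 4.73e+07 to 5.56e+07 in IL-6 KO tumor, and to 8.81e+06 to 1.75e+07 and 3.4e+07 to 4.42e+07 in stroma. The residual standard deviation between libraries had a median over all genes of 0.21 in tumor and of 0.86 in stroma on the log2 scale, and of 0.19 and 0.66 over the members. IL-6 KO tumor replicate 2 stood apart for several members, and values without it are given where they differ. The tables were normalized separately, so genotypes were tested within a compartment only. In bulk RNA, fewer cells of a type and less RNA per cell cannot be told apart.

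HIF binds the letters ACGTG or GCGTG in the promoters of its targets, and the members were therefore searched for these letters on either strand of the 250 bases before the transcription start, in RefSeq promoters of build GRCm38.p6. ACGTG lies within CACGTG, the site of MYC and USF factors, and a CACGTG reads as ACGTG on both strands. The promoter table held 33 of the 36 members, without Slc2a3, Bnip3l and Ndrg1. At least 1 match was found for 31 of the 33 (93.9%), against 61.0% of the 9572 genes tested in tumor that had a promoter in the table and 41.5% of all 27025 genes in it. The members were named as glycolytic and HIF target genes, so this contrast may follow from how the list was made. Both motifs hold a CG, and the window held a median of 21 CG pairs for the members and 17 for the tested genes. The 5 genes that rose in tumor are given with matches in capitals (CACGT and CACGC are the motifs on the other strand). These are the windows of Gapdh (chr6:125165774-125166023, minus strand), Hk2 (chr6:82774455-82774704, minus), Pkm (chr9:59656977-59657226, plus), Aldoa (chr7:126799255-126799504, minus) and Tpi1 (chr6:124814159-124814408, minus).
Gapdh: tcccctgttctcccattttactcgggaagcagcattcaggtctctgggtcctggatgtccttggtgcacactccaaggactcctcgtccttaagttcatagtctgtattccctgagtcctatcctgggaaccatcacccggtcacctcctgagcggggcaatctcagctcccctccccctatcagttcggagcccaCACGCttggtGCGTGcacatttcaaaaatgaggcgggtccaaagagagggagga
Hk2: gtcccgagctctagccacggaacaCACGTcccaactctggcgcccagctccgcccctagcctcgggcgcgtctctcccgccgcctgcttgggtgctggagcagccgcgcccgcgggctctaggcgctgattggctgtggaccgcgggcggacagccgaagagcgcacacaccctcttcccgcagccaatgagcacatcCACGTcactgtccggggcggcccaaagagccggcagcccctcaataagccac
Pkm: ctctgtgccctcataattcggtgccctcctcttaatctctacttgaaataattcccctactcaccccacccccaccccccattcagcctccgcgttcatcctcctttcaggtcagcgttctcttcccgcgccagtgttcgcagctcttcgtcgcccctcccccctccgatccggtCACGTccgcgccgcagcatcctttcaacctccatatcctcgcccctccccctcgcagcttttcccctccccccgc
Aldoa: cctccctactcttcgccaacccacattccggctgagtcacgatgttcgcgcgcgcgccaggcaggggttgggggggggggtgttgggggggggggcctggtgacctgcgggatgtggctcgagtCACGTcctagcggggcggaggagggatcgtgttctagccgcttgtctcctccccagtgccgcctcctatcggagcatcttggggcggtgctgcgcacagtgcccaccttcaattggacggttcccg
Tpi1: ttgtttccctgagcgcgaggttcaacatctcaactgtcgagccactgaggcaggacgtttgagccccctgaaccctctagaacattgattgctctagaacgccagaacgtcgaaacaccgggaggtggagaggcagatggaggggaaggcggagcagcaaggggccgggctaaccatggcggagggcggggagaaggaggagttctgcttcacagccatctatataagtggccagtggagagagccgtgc
Gapdh and Hk2 held 2 matches each, Pkm and Aldoa 1 each in the window shown, and Tpi1 none in its only window. Pkm has another start with no match in its window, and of the other 2 starts of Aldoa 1 window held the same match and 1 held none. A match is a run of letters and not a measured binding site, and whether these genes share a control was not tested.

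In leukemia cells from IL-6 KO hosts, 5 of the 33 tested members rose and 1 fell (limma, adjusted p under 0.05, called below). The genes that rose were Aldoa, Tpi1, Gapdh, Pkm and Hk2, all enzymes of glycolysis, and the gene that fell was Bnip3l, a receptor for the removal of mitochondria. The 6 calls are 18.2% of the members tested. Of all 14493 genes tested in tumor, 19.8% were called, 10.6% as higher and 9.16% as lower in IL-6 KO, so the members as a whole were called about as often as any gene. Within the 16 glycolysis genes, 5 were called and all 5 were higher, 13 of the 16 estimates were above 0, and their median log2 fold change was 0.32, beside -0.01 over all genes tested. Over the 33 members, 23 estimates were above 0 (69.7%, and 49.3% over all genes), with a median of 0.07. The genotypes did not overlap in 6 members (18.2%), against 25.6% of all genes tested. The number of calls rested in part on single libraries: it was 3 without WT replicate 1 or without WT replicate 3, and 8 without IL-6 KO replicate 2. Without these libraries, in the same order, 2509, 1713 and 3328 of all 14493 genes were called.

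Upper glycolysis traps glucose, rearranges it and splits it into triose phosphates. Aldolase A (Aldoa; chr7:126795234-126800751), which cuts fructose bisphosphate into both trioses, had normalized counts of 12536, 10157, 10375 and 10472 in WT and of 14873, 14626, 15623 and 15183 in IL-6 KO. Every IL-6 KO library lay above every WT library, and Aldoa was higher by 0.47 ± 0.07 on the log2 scale (SE, n = 4 per group, limma adjusted p = 0.00383). Triose phosphate isomerase (Tpi1; chr6:124810586-124814296), which interconverts the trioses, stood at 5519.7, 5262, 5384 and 5456 in WT and at 7658, 6667, 7834 and 7753 in IL-6 KO. The WT libraries of Tpi1 were within a few percent of each other, all IL-6 KO libraries were above them, and the log2 difference was 0.47 ± 0.07 (limma adjusted p = 0.00271). Tpi1 had the smallest p of the members and stayed called in all 19 alternatives run on it, with adjusted p from 0.000289 to 0.0342. Aldoa stayed called in 17 of 18, and missed when the trend of each library with GC content and length was removed together with a replicate block (adjusted p = 0.0718).

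Hexokinase 2 (Hk2; chr6:82725025-82774454), the inducible enzyme that traps glucose in the cell, gave 2665, 3155, 3106 and 3810.4 in WT and 3892, 4128, 3781 and 4159 in IL-6 KO. WT replicate 4 lay above IL-6 KO replicate 3, so the groups overlapped narrowly, and Hk2 was higher by 0.34 ± 0.10 with an adjusted p of 0.0436 (limma). This call was lost when any one library other than WT replicate 4 was left out (adjusted p from 0.0631 to 0.109), and stood at 0.0154 without that library. Hexokinase 1 (Hk1), the constitutive isoenzyme, had 942, 1229, 871 and 1024 in WT and 1037, 1713, 1121 and 1293 in IL-6 KO, a log2 difference of 0.33 ± 0.16 that did not pass (limma adjusted p = 0.179). The platelet-type phosphofructokinase (Pfkp), 1 of the enzymes of the committed step, had 2031, 1363, 1975 and 2128 in WT and 2429.7, 2969, 2600.4 and 2188 in IL-6 KO. Its groups did not overlap, but its log2 difference of 0.45 ± 0.15 missed the threshold (limma adjusted p = 0.0559). The liver-type enzyme (Pfkl) had 5919, 4141, 4748 and 4808 in WT and 5523, 5601, 4004 and 5869 in IL-6 KO, with a log2 difference of 0.09 ± 0.14. Glucose phosphate isomerase (Gpi1) and Pfkfb3, which makes the activator of phosphofructokinase, had log2 differences of 0.11 and -0.06, with adjusted p of 0.317 and 0.715 (limma).

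**Figure D1:**
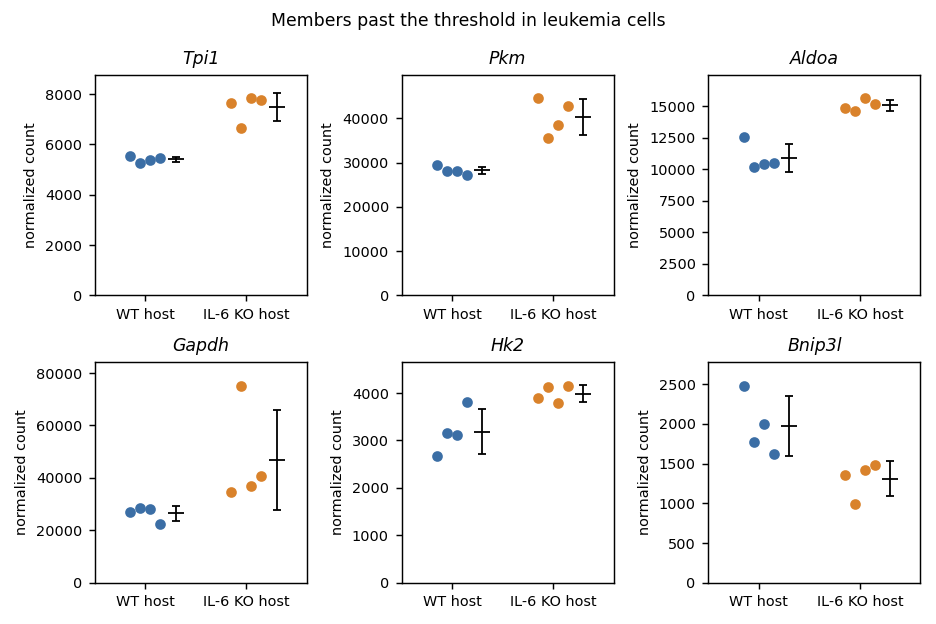
Normalized counts of the 6 members past the threshold in leukemia cells, by host genotype; points are libraries, the bar beside them is the mean ± SD (n = 4). Aldoa, Tpi1, Pkm and Gapdh are higher in every IL-6 KO library, Hk2 overlaps narrowly, Bnip3l is lower in every IL-6 KO library, and the IL-6 KO library of Gapdh at 75232 lies far above the others.

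Lower glycolysis oxidizes the trioses and makes the ATP. Pyruvate kinase (Pkm; chr9:59656368-59679375), the last step, had normalized counts of 29352, 28094, 28198 and 27221 in WT and of 44539, 35487, 38488 and 42698 in IL-6 KO. All IL-6 KO libraries were above all WT libraries, with a log2 difference of 0.51 ± 0.08 (limma adjusted p = 0.00331). Pkm stayed called in 17 of 19 alternatives and missed in both that removed the GC and length trends (adjusted p = 0.0622 and 0.104). The M1 and M2 forms of Pkm come from 1 gene by alternative splicing and are summed in these values.

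Glyceraldehyde phosphate dehydrogenase (Gapdh; chr6:125161715-125166467), often used as a reference gene, had 26935, 28691, 28288 and 22396 in WT and 34644, 75232, 36851 and 40873 in IL-6 KO. The groups did not overlap, and the log2 difference was 0.75 ± 0.22 (limma adjusted p = 0.0369). Near-identical copies share reads with Gapdh, and how the counting divided them cannot be seen in these files. The pseudogene Gm12671, identical to Gapdh over 1002 nucleotides, was given 11089, 15551, 15856 and 9821 in WT, 17899.8, 15202 and 14174 in IL-6 KO replicates 1, 3 and 4, and 0 in IL-6 KO replicate 2. Summed with its 35 listed copies, Gapdh stood at 38781, 45920.0, 45126 and 33543 in WT and at 53904, 75862, 53063 and 56212 in IL-6 KO. These sums did not overlap either, and they differed by 0.54 ± 0.13 (limma adjusted p = 0.0207). The call on Gapdh alone was lost without any 1 of the 4 WT libraries or without IL-6 KO replicate 4 (adjusted p from 0.0654 to 0.0864), and without IL-6 KO replicate 2 the difference was 0.50 (adjusted p = 0.00775).

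**Figure D2:**
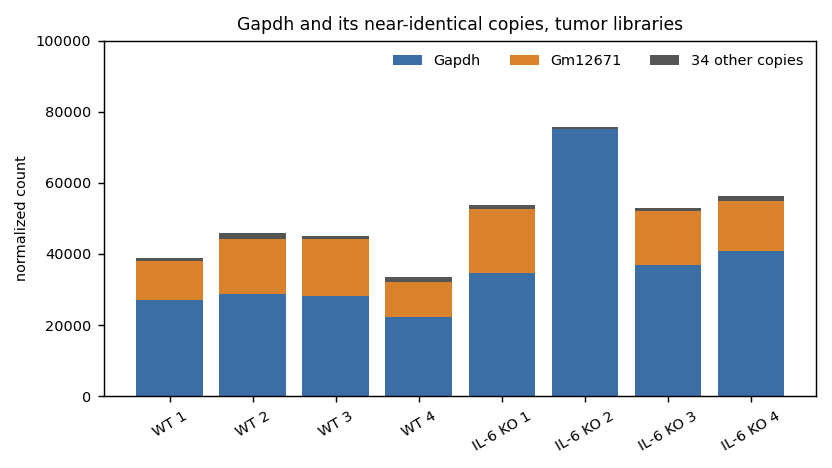
Stacked bars of the normalized count of Gapdh, of Gm12671 and of 34 other near-identical copies in each tumor library. Gm12671 takes none of the stack in IL-6 KO replicate 2, where Gapdh alone reaches 75232, and the summed stacks are 33543 to 45920.0 in WT and 53063 to 75862 in IL-6 KO.

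Lactate dehydrogenase A (Ldha), which reduces pyruvate to lactate, had 27691, 25362, 24743 and 27148 in WT and 36623, 23549, 36166 and 35412 in IL-6 KO. In IL-6 KO, 3 values exceeded every WT value and replicate 2 was below them all, and the log2 difference of 0.31 ± 0.13 did not pass (limma adjusted p = 0.128). Without IL-6 KO replicate 2 it was 0.46 and passed (limma adjusted p = 0.00128). Phosphoglycerate kinase (Pgk1), the first step that yields ATP, had 8259.9, 8116, 7944 and 8266 in WT and 9387, 8222, 9100.2 and 9594 in IL-6 KO. Replicate 2 lay within the WT range and the other 3 above it, with a log2 difference of 0.15 ± 0.06 (limma adjusted p = 0.113, and 0.0168 without IL-6 KO replicate 2). Its 2 listed copies held 9.85% to 33.3% of the summed count. With them, Pgk1 was 9732 to 10318 in WT, 9121 in IL-6 KO replicate 2 and 13305 to 13650.2 in the other 3, a log2 difference of 0.29 ± 0.12 (limma adjusted p = 0.116). Lactate dehydrogenase B (Ldhb), the heart form, was nearly silent in the leukemia, at 0 to 19.0 in WT and 11.6 to 28.5 in IL-6 KO, with a log2 difference of 1.15 ± 0.89 that turned to -0.13 ± 0.46 with its copy summed (limma adjusted p = 0.386 and 0.873). The mutase Pgam1, the enolase Eno1 and Pdk1, the kinase that closes pyruvate dehydrogenase, had log2 differences between -0.09 and 0.03 with adjusted p of 0.381 or more (limma).

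None of the 4 carriers passed in tumor. The glucose carrier GLUT1 (Slc2a1) had 1411, 1549.6, 1369 and 1291 in WT and 1529, 1667, 1706 and 1672 in IL-6 KO, so that only WT replicate 2 reached into the IL-6 KO range, with a log2 difference of 0.23 ± 0.08 (limma adjusted p = 0.0717). It passed without WT replicate 2 (adjusted p = 0.0497). GLUT3 (Slc2a3) ran from 636 to 831 in WT and from 654 to 1064 in IL-6 KO, a log2 difference of 0.20 ± 0.15 with an adjusted p of 0.357 (limma). The lactate carrier MCT1 (Slc16a1) had 8142 to 9197 in WT and 6731 to 10009.8 in IL-6 KO (log2 difference 0.03 ± 0.11). MCT4 (Slc16a3), the lactate exporter of hypoxic cells, was low, with 22.0, 11.5, 14.6 and 17.9 in WT and 53.8, 52.7, 9.42 and 74.6 in IL-6 KO. IL-6 KO replicate 3 was the lowest of all 8 libraries for it and the other 3 the highest, and the log2 difference of 1.19 ± 0.58 did not pass (limma adjusted p = 0.170, and 0.0104 without that library). Neutrophil markers were also lowest among the IL-6 KO libraries in replicate 3, as given further on, and their part in the value of Slc16a3 was not tested.

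The listed members of HIF and oxygen sensing, Hif1a, Arnt and Egln1, did not pass in tumor in either direction. Other oxygen-sensing genes are given further on. Hif1a, which encodes the oxygen-labile subunit and is regulated mainly as a protein, had 2678, 3197, 2975 and 2870.0 in WT and 2472, 2047, 2930.2 and 2548 in IL-6 KO, with a log2 difference of -0.24 ± 0.11 (limma adjusted p = 0.148). Arnt, its partner, ran from 2201 to 2561 in WT and from 1752 to 2288 in IL-6 KO, with a log2 difference of -0.13 ± 0.10. The main prolyl hydroxylase Egln1 ran from 2032 to 2343 in WT and from 1982 to 2494 in IL-6 KO, with a log2 difference of -0.04 ± 0.09. Their adjusted p were 0.395 and 0.811 (limma).

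Among the other HIF targets, Bnip3l (NIX; chr14:66985239-67008877), a mitophagy receptor needed for red cells to lose their mitochondria, had 2482, 1776, 1996 and 1617 in WT and 1359, 987, 1417 and 1475 in IL-6 KO. Every IL-6 KO library was below every WT library, and Bnip3l fell by 0.59 ± 0.16 on the log2 scale (limma adjusted p = 0.0299). The call was lost without WT replicate 1, 2 or 3 or without IL-6 KO replicate 1 (adjusted p from 0.0533 to 0.0753). Erythroid markers summed to 592 to 2290.5 in WT tumor and 1077 to 3457 in IL-6 KO tumor, with 0 of 6 called. Their part in the value of Bnip3l was not tested. Its relative Bnip3 had 457, 353, 530.2 and 413 in WT and 474, 313, 551 and 512 in IL-6 KO, with a log2 difference of 0.06 ± 0.19 that turned to -0.03 with its copy summed. Of the other 8, none passed, and their estimates ran from -0.26 for Higd1a, a mitochondrial stress protein, to 0.39 for Ddit4, an inhibitor of mTORC1, with adjusted p from 0.0914 to 0.95 (limma). Vegfa, the angiogenic factor, is named after its values were seen: it had 2419 to 2648 in WT, 4264 in IL-6 KO replicate 2 and 1878 to 2114 in the other 3 IL-6 KO libraries. Its log2 difference was -0.09 ± 0.23 with that library and -0.37 without it, and only the latter passed (limma adjusted p = 0.00654).

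Genes near these pathways were taken from lists written for this comparison with earlier results of these data known. Their counts are to be read against the 19.8% of all genes called in tumor. A share above it is a description and not a test. The shares were 57.1% for the pentose phosphate branch, 50% for other oxygen-sensing genes, 24% for other HIF targets, 20% for pyruvate entry and 14.3% for other isoenzymes, so the last 3 lists were called about as often as any gene. Of 7 genes of the pentose phosphate branch, which draws glucose phosphate off for NADPH and ribose, 4 were called and all were higher. G6pdx, the entry enzyme, had means of 1349 ± 124 in WT and 1829 ± 135 in IL-6 KO (SD, n = 4), a log2 difference of 0.44. Taldo1, Tkt and Pgd, which carry the branch on, differed by 0.49, 0.29 and 0.29. Of 14 other glycolysis isoenzymes 2 were called, both higher: the myeloid hexokinase Hk3, at 33.8 to 68.4 in WT and 96.5 to 251 in IL-6 KO (log2 difference 1.79), and the muscle phosphofructokinase Pfkm (0.29).

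Of 8 other oxygen-sensing genes, 3 were lower and 1 higher. The lower ones were Eloc (-0.72), Elob (-0.29) and Rbx1 (-0.29), subunits shared by the VHL ubiquitin ligase that degrades HIF-1α and by other cullin ligases. Eloc had 1636 to 1882 in WT and 1012 to 1139 in IL-6 KO, and the higher one was the prolyl hydroxylase Egln2 (0.48). Of 25 other HIF targets, 4 were higher and 2 lower, a share near that of all genes. Anxa2, a membrane annexin (1.57), Kdm5c, a histone demethylase (0.41), Jmjd6 (0.38) and the cytokine Mif (0.22) were higher, and the lipoprotein receptor Vldlr (-1.66) and the kinase Pdk3 (-0.25) were lower. The difference for Mif turned to -0.06 when the GC and length trends were removed. Of 10 genes of pyruvate entry to the mitochondria, Mpc2, a subunit of the mitochondrial pyruvate carrier, was lower (-0.80) and Pdhx, a subunit of pyruvate dehydrogenase, was higher (0.30). Of these 18 calls, 5 (Anxa2, Eloc, Hk3, Kdm5c and Mpc2) held in all 18 alternatives, and 9 held with the GC and length trends removed.

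Neutrophil and some monocyte markers moved with the genotype in the tumor libraries. The 10 neutrophil precursor markers (Mpo, Elane and others) summed to 2858 to 3477 in WT and to 13193, 13529.6, 5542 and 12755 in IL-6 KO replicates 1 to 4, and all 10 were called higher. Mature neutrophil markers summed to 2262 to 2858 in WT and 2982 to 6484 in IL-6 KO, with 5 of 10 called, and monocyte and macrophage markers to 1984 to 2378 and 2539.6 to 3500.1, with 4 of 11 called higher (Ly6c2, Ccr2, F13a1 and Cx3cr1). Of the other 7, 4 estimates were below 0, and Mrc1, at 1227 to 1712 the largest part of that sum, had a log2 difference of 0.06 (limma adjusted p = 0.698). The 9 B-lineage markers summed to 123745 to 128481 in WT and 133666 to 136872 in IL-6 KO and moved in both directions: Vpreb1 was higher (log2 difference 0.53), Ebf1 (-0.30) and Cd24a (-0.39) were lower, and the other 6 did not pass. The part of these cells in the values of the members and the other listed genes was not tested.

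In stroma, no member was called between IL-6 KO and WT hosts (0 of 32). Of all 12202 genes tested in stroma, 1 was called (0.00820%), so the members again matched the table as a whole, and 1117 genes and 1 member had an unadjusted p under 0.05 (limma). No member's groups were free of overlap, against 5.79% of all genes. The median log2 difference of the members was 0.18, with 20 of 32 estimates above 0, beside -0.01 over all genes, and 12 of the 16 glycolysis genes were above 0. No member was called in any alternative run, and the wide spread between stroma libraries leaves large differences undetected.

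The member with the smallest p in stroma was the lactate carrier Slc16a1, which red cell precursors also express, at 1671, 1742, 999 and 1389 in WT and 509.5, 1025, 1049 and 768 in IL-6 KO. WT replicate 3 lay below 2 of the IL-6 KO libraries, and the log2 difference was -0.82 ± 0.33 (limma adjusted p = 0.489). Erythroid markers summed to 123929 to 180787 in WT stroma and to 51811 to 218579 in IL-6 KO stroma, with 0 of 10 estimates above 0, and their part in the value of Slc16a1 was not tested. Neutrophil markers also moved in stroma: the precursor markers summed to 4873 to 10041 in WT and 4801 to 25419 in IL-6 KO, with 9 of 10 estimates above 0, and the mature markers to 3389 to 6398 and 3809.6 to 9892, with 9 of 11 above 0. None of these was called, and their part in the members' values was not tested. Mxi1, a MYC antagonist and HIF target, had 358, 468, 518 and 431 in WT and 288, 419.7, 212 and 204 in IL-6 KO, with a log2 difference of -0.71 ± 0.34. Tpi1 had 163 in WT replicate 2 and 48.4 to 57.8 in the other WT libraries, against 85.8 to 327 in IL-6 KO, so that this WT library reached into the IL-6 KO range, with a log2 difference of 1.11 ± 0.56. Pgk1 had 338, 212, 481 and 136 in WT and 856, 310.2, 845 and 294 in IL-6 KO (0.95 ± 0.50, and 0.70 ± 0.39 with its copies summed). Slc2a3 had 263, 212, 246 and 223 in WT and 238, 311, 422 and 605 in IL-6 KO (0.66 ± 0.36). The adjusted p of these 4 genes ran from 0.558 to 0.602 (limma).

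The 6 members called in tumor can be read beside their stroma values, which were fitted apart and not tested against them. The stroma log2 differences were 0.53 ± 0.31 for Aldoa, 0.75 ± 0.70 for Gapdh, 0.18 ± 0.31 for Pkm, 0.35 ± 0.45 for Hk2 and -0.46 ± 0.36 for Bnip3l, and none passed (limma adjusted p from 0.57 to 0.888 with Tpi1 included). With its copies summed, the stroma log2 difference of Gapdh was 0.55 ± 0.31 (limma adjusted p = 0.609). Eno1 had a log2 difference of -0.51 ± 0.43 in stroma, which turned to 0.16 ± 0.40 with its copies summed. Hif1a, Arnt and Egln1 had 60.6 to 229, 90.6 to 389.6 and 39.4 to 229 over the 8 stroma libraries, with log2 differences of 0.18 ± 0.48, -0.47 ± 0.49 and 0.50 ± 0.56. In the other lists no gene was called in stroma. The smallest p there belonged to Vhl, the substrate receptor of the HIF ligase, at 14.9 to 46.6 in WT and 54.3 to 96.7 in IL-6 KO (log2 difference 1.76 ± 0.58, limma adjusted p = 0.432).

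**Figure D3:**
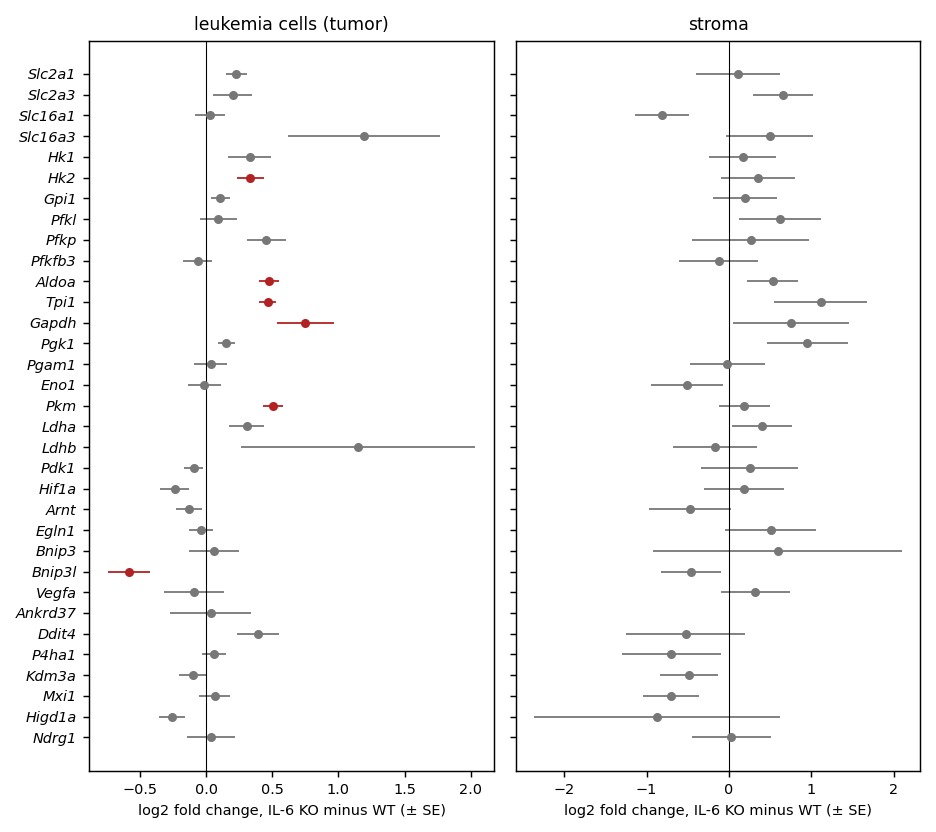
Log2 fold change of IL-6 KO minus WT with its SE for each listed member, in tumor (left) and stroma (right; the horizontal scales differ), red where the limma adjusted p is under 0.05. The tumor errors are small except for the low genes Slc16a3 and Ldhb, and the red points are 5 glycolytic genes above 0 and Bnip3l below it, while the stroma errors are wide and no point is red.

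Where both counts are well above 0, the ratio of 2 isoforms within a library hardly depends on how the library was scaled. Near a count of 0, the 1 added to each count weighs on the ratio. This ratio was taken for 6 pairs in each compartment. It was compared between genotypes with an exact two-sided permutation test of 4 against 4 libraries, whose smallest p is 0.0286. With adjustment over the 12 tests, 1 pair at that limit cannot pass by itself. The mitophagy pair Bnip3/Bnip3l reached that limit in tumor, with log2 ratios of -2.44, -2.33, -1.91 and -1.97 in WT and -1.52, -1.65, -1.36 and -1.53 in IL-6 KO, a difference of 0.65 with no overlap (exact permutation p = 0.0286, adjusted 0.343), and of 0.51 with copies summed (exact permutation p = 0.0286). The pairs Slc16a1/Slc16a3 and Pfkl/Pfkp in tumor differed by -1.17 and -0.36 (exact permutation p = 0.143 for both), and Hk1/Hk2 and Slc2a1/Slc2a3 by -0.01 and 0.03. In stroma the differences ran from -1.31 to 1.05, with exact permutation p of 0.143 or more.

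The same ratios were far apart between compartments, which is described with no test. The log2 count ratio Ldha/Ldhb was 10.2 to 14.8 in tumor and 1.14 to 3.75 in stroma. The 14.8 came from WT tumor replicate 1, where Ldhb was 0 and the added 1 set the ratio. Per kilobase the median of Ldha/Ldhb was 10.4 in tumor and 1.90 in stroma, so Ldhb was a far smaller part of the pair in leukemia cells. The count ratio Hk1/Hk2 was -1.91 to -1.27 in tumor and 0.21 to 4.23 in stroma, with medians per kilobase of -1.35 and 2.47, so the leading hexokinase of the pair was Hk2 in tumor and Hk1 in stroma. Slc16a1/Slc16a3 was 6.94 to 9.91 in tumor and 0.94 to 4.57 in stroma. Bnip3/Bnip3l was -2.44 to -1.36 in tumor and -9.54 to -3.63 in stroma, with medians per kilobase of -0.89 and -4.09. The lowest stroma ratios, -9.54 and -9.36, came from IL-6 KO replicate 2 and WT replicate 4, where Bnip3 was 0 and 0.25. In stroma the near-identical copy Gm6532 held 64.2% to 100% of the summed Bnip3 count. With copies summed, Bnip3/Bnip3l was -2.46 to -1.43 in tumor and -4.50 to -2.24 in stroma, so that the compartments overlapped, and Ldha/Ldhb was 8.79 to 11.1 and -0.09 to 3.08. The ranges of Slc2a1/Slc2a3 and Pfkl/Pfkp overlapped between compartments.

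**Figure D4:**
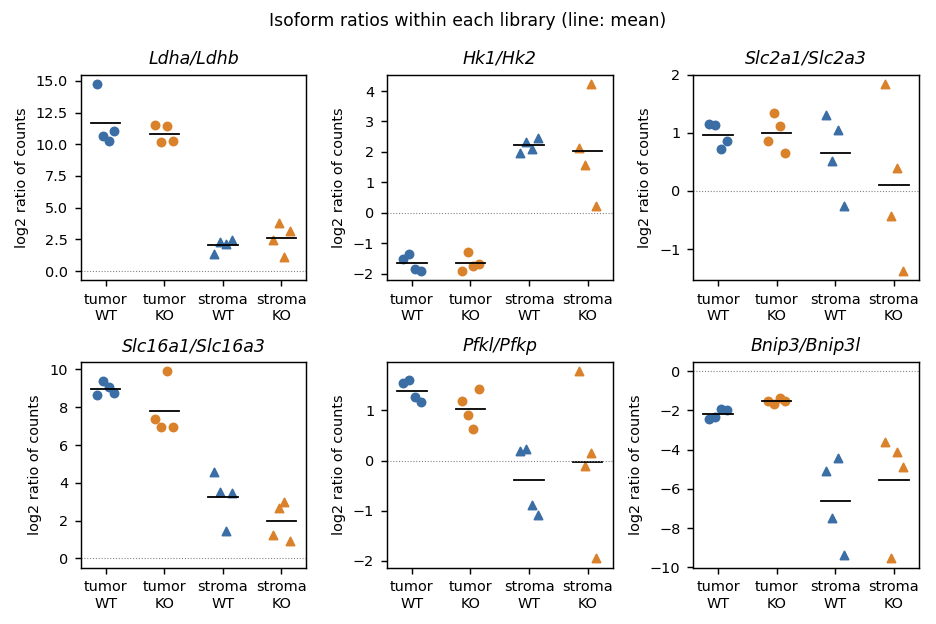
Log2 ratio of the normalized counts of 2 isoforms within each library, by compartment and genotype, with a line at the mean of 4 libraries. The 2 compartments separate without overlap for Ldha/Ldhb, Hk1/Hk2, Slc16a1/Slc16a3 and, unless near-identical copies are summed, Bnip3/Bnip3l, and the genotypes separate only for Bnip3/Bnip3l in tumor.

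Across the 4 groups, levels were read as log2 distance from the median of the 10887 genes over the minimum in both tables, library by library. By this measure 11 of 32 members (34.4%) were higher in all 8 tumor libraries than in any stroma library, 8 were higher in all stroma libraries, and 13 overlapped. The shares over all genes were 18.3% and 21.5%. The members higher in tumor were mostly enzymes, namely Pfkl, Aldoa, Tpi1, Gapdh, Pgam1, Eno1, Ldha and Pdk1, with P4ha1, Higd1a and Ndrg1. In WT hosts the tumor level exceeded the stroma level by 3.66 for Gapdh, 3.64 for Eno1, 3.24 for Ldha, 2.81 for Tpi1, 2.73 for Pgam1 and 1.24 for Aldoa, and in IL-6 KO hosts by 3.69, 4.16, 3.17, 2.19, 2.82 and 1.21. With near-identical copies summed, the gaps of Gapdh and Eno1 were 2.14 and 3.09 in WT hosts and 2.16 and 2.93 in IL-6 KO hosts, and Pgk1 joined the members higher in all tumor libraries, which were then 12. The members higher in stroma were Slc2a1, Slc2a3, Slc16a3, Hk1, Ldhb, Bnip3l, Kdm3a and Mxi1, which held 3 of the 4 carriers. Their tumor level minus stroma level in WT hosts ran from -6.54 for Slc16a3 to -1.50 for Slc2a1.

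Per kilobase of the longest transcript, many glycolytic enzymes were among the most abundant transcripts of the leukemia cells, and others lay lower. The ranking in each compartment held the 10669 genes over the minimum in both compartments that have a known length. In tumor, Eno1, Ldha, Pkm, Gapdh and Aldoa lay at median percentiles of 98.7, 98.6, 98.3, 97.9 and 97.6. Gpi1, Tpi1, Pgk1 and Pgam1 lay at 94.9 to 96.4 and Pfkl at 85.7. Hk2, Pdk1, Pfkfb3, Hk1 and Pfkp lay at 71.6, 64.6, 62.3, 44.1 and 43.6, and Slc16a3 and Ldhb at 3.82 and 7.32. In stroma Pkm, Aldoa, Gpi1, Hk1 and Slc16a1 lay highest, at 97.9, 94.8, 94.2, 93.5 and 91.5, and Higd1a lowest, at 6.01. Gapdh and Eno1 stood at only 73.2 and 79.2 in stroma, where copies of Gapdh took 51.1% to 95.9% and copies of Eno1 24.9% to 70.1% of the summed counts.

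Transcript length and the choice of scale bore on these orders. The median tumor minus stroma level in WT hosts was 0.26 for the shortest of 3 equal classes of transcripts and -0.36 for the longest class, and the members higher in tumor had a median transcript length of 2232 nucleotides, those higher in stroma 4306.5. On the other scale, the library sum without its 20 most abundant genes, 14 members were higher in all tumor libraries and 7 in all stroma libraries. Slc2a1 then overlapped, and Pgk1, Pkm and Ddit4 joined the members higher in tumor. The part of transcript length and scale in these differences was not tested.

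**Figure D5:**
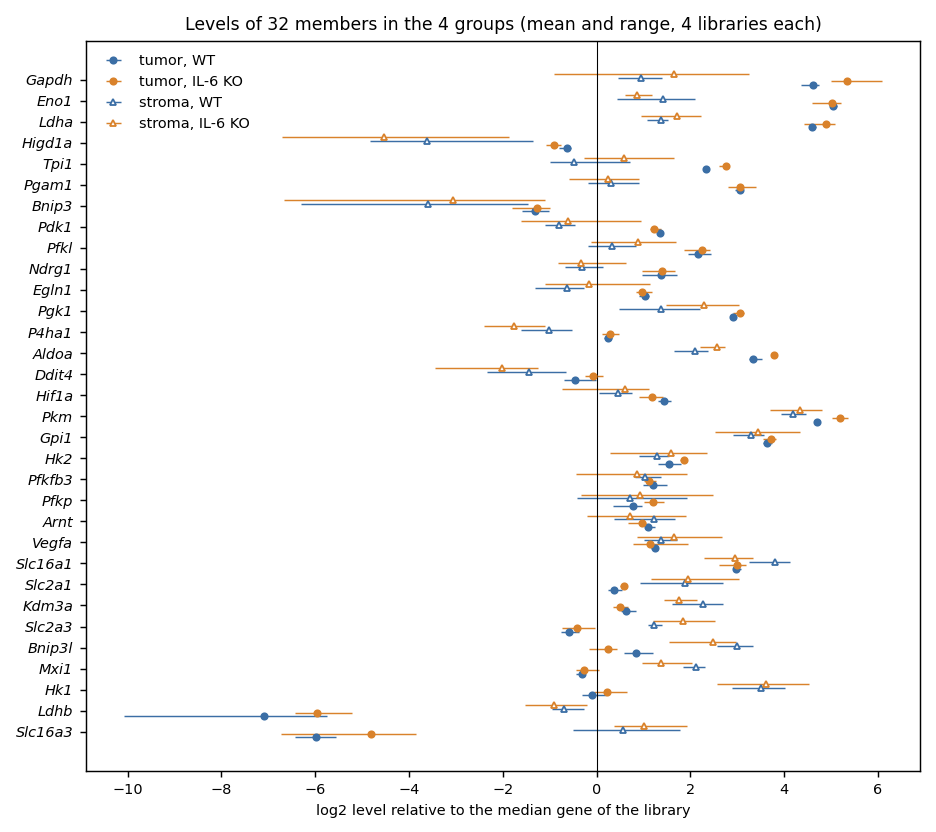
Level of 32 members as log2 distance from the median gene of the library, as group mean with the range of 4 libraries, for tumor (filled circles) and stroma (open triangles) of WT (blue) and IL-6 KO (orange) hosts, ordered by the difference between compartments in WT hosts. Gapdh, Eno1 and Ldha at the top lie far higher in tumor, Slc16a3, Ldhb and Hk1 at the bottom far higher in stroma, and the genotype means differ most for Slc16a3 in tumor (-5.98 in WT and -4.81 in IL-6 KO) and for Tpi1 in stroma (-0.48 and 0.58).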

How the data were processed

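RNA from mCherry+ and mCherry- marrow cells was sequenced in 4 libraries per host genotype and compartment, grouped by the labels. The authors aligned reads to mm10 and quantified transcripts with Salmon 1.3.0, with GC and sequence bias corrections, and normalized the estimated counts with DESeq2 1.28.1. The deposited normalized counts are a scaled signal from which whole reads could not be recovered, so the depth of each library could not be read from them and no counting interval was computed. The authors' tables of fold changes and p-values were not used here.

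Log2(normalized count + 1) was tested with limma 3.58.1 in R 4.3.3 (trended moderated variances, genotype as the only term, two-sided, Benjamini-Hochberg over all genes of a table, threshold 0.05) on genes with a mean over 10, in a separate fit per compartment. A log2 difference on this scale understates the change of low genes. The members and lists were chosen with earlier results of these data known. Values are given in full for members that were called, had 1 of the 5 smallest p in a compartment, belonged to an isoform pair, or encode HIF-1α, ARNT or the EGLN enzymes. Other list genes are named if called or among the 4 smallest p. Transcript lengths and gene positions came from GENCODE vM21 on GRCm38. A gene counted as a copy of a member when an alignment of 150 nucleotides or more, at an identity of 97% or above, covered 50% of it or more. A further B-lineage marker is not reported here. Ratios were tested by exact permutation in SciPy 1.17.1. The test was run on simulated data beforehand. Alternatives were the pseudocount, the filter, quantile and median scaling, array weights, a replicate block, removal of GC and length trends, summing of copies and leaving out each library.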

Additional observations from a re-analysis of the deposited data

Results flagged for a closer look

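Among 130 groups of 4 libraries (33 members in tumor and 32 in stroma, 2 genotypes each), 12 values lay far from the other 3 by Dixon's test at 95%, which chance alone does in about 1 of 20 groups. Of the 12, 5 belonged to IL-6 KO tumor replicate 2: Gapdh at 75232 (others 34644 to 40873), Vegfa at 4264 (1878 to 2114), Ldha at 23549 (35412 to 36623), Tpi1 at 6667 (7658 to 7834) and Arnt at 1752 (2255 to 2288). The value of Gapdh went with the count of 0 for Gm12671 in the same library. Summed with all its listed copies, Gapdh was still 75862 there and 53063 to 56212 in the other IL-6 KO libraries. In WT tumor, Aldoa stood at 12536 in replicate 1 (10157 to 10472) and Kdm3a at 1920.1 in replicate 3 (1564 to 1590.5). In stroma, Tpi1 stood at 163 in WT replicate 2 (48.4 to 57.8), Higd1a at 40.4 in WT replicate 3 (2.52 to 6.33), Pdk1 at 200.4 in IL-6 KO replicate 1 (32.5 to 59.1), Hif1a at 60.6 in IL-6 KO replicate 2 (204 to 229) and Aldoa at 485 in IL-6 KO replicate 4 (652 to 684). The genotypes overlapped for every member in stroma, so none could move in opposite directions in the 2 compartments with every library. Estimates did differ in sign for some members, such as Hif1a (-0.24 in tumor and 0.18 in stroma).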

How the results depend on the processing

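The 6 calls in tumor were the same genes under both other pseudocounts, both other filters, the replicate block and the summing of copies. Quantile scaling gave 4 (Gapdh and Hk2 lost), median centring 7 (Pfkp added) and array weights 9. In the same order, 2531, 2879 and 4153 of all 14493 genes tested were called. With GC and length trends removed, 3 members (Aldoa, Tpi1 and, lower, Higd1a) and 1806 genes were called, and 1 member (Tpi1) and 1402 genes with the replicate block added. Leaving out 1 library gave 3 to 8 members and 1572 to 3328 genes in tumor, and 0 members and 1 to 3 genes in stroma. In stroma, array weights gave 4 genes and the GC and length trends removed gave 2. The isoform pairs gave 0 calls in every alternative, where 1 pair cannot pass by itself. Samples that share a replicate number did not deviate together (correlations from -0.03 to 0.13), so the numbers were not taken as pairs; the replicate block left 6 members and 2230 genes called in tumor, and 0 and 1 in stroma. Of the 33 members (30 under the stricter filter), 19 to 24 tumor estimates were above 0 over all alternatives. Some estimates of genes that were not called changed sign, and so did that of Mif. Over the libraries left out, tumor values ranged from -0.11 to 0.0017 for Egln1, -0.37 to 0.027 for Vegfa, -0.042 to 0.15 for Slc16a1, -0.13 to 0.031 for Pfkfb3, -0.076 to 0.12 for Pgam1, -0.084 to 0.13 for Eno1 and -0.037 to 0.24 for Bnip3. With the trends removed (with or without the block), tumor values were -0.10 for Pfkl, -0.079 for Pgam1 and -0.061 for Mif, and Pkm in stroma was -0.011. Quantile scaling gave -0.034 for Slc16a1 and -0.030 for Pgam1. Array weights gave 0.080 for Eno1 in tumor and -0.22 for Hif1a in stroma. Summed copies gave -0.13 for Ldhb and -0.033 for Bnip3 in tumor, and, chosen after seeing the data, 12 members higher in all tumor libraries than in stroma. The depth of each library could not be read from these values, and the spread between stroma libraries limits that comparison.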
